A study of Homo sapiens with 6 samples.

Results

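Ago2-IP RNA of Hep G2 cells transfected with a miR-195 mimic was compared directly with Ago2-IP RNA of Hep G2 cells transfected with a miR-497 mimic, gene by gene and without dividing by total RNA. The comparison took every gene symbol of the deposited list with a value above 0 in both libraries, 13992 of 21863 symbols, and single genes are described among the 10650 with at least 1 RPKM in 1 of the libraries. RPKM is a read number scaled to the length of the gene and to the mapped reads of the library. Hep G2 is a line grown from a human liver tumor. Both mimics were double-stranded RNA transfected at 5 nM, and both cultures were harvested 24 hours later for precipitation with an antibody to human Ago2. A library of non-transfected cells (NT), labelled 0 hours, is given beside them, and total RNA was sequenced from all 3 conditions. Each condition gave 1 Ago2-IP library and 1 total RNA library, 6 in all, so there is no spread between replicates and no test between the mimics, and every difference below is a difference between 2 libraries. The NT cells were not transfected, so for them the effect of transfection itself and that of a mimic cannot be told apart. The study's methods do not say which libraries were made with poly-A selection.

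A microRNA guides Argonaute proteins, of which Ago2 is one, to messenger RNAs by pairing mainly through its seed, the bases near its 5′ end. Argonaute then binds a GW182 protein, which brings in the enzymes that shorten the poly-A tail and lower translation, so a target is held in the complex while its amount in the cell falls. miR-195 and miR-497 belong to the miR-15/16 family, known for repressing cyclins and other drivers of the G1 phase, and they are made from the same host transcript. They share their seed, so the contrast holds the seed fixed and varies the rest of the mimic.

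The mature sequences, credited to RefSeq and placed on GRCh37 (the assembly also called hg19), lie on the minus strand of chromosome 17 inside the noncoding gene MIR497HG, at chr17:6920986-6921006 and chr17:6921298-6921318. They are shown because they are what differs between the libraries, with the seed, bases 2 to 8, in capitals.
hsa-miR-195-5p: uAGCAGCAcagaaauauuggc
hsa-miR-497-5p: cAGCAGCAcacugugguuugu
They are identical from base 2 to base 10 and at 12 of 21 positions in all, so that only 3 of the positions after the shared stretch are the same. The DNA word that pairs with both seeds is TGCTGCT. The symbols MIR195 and MIR497 are listed at 0 RPKM in all 6 libraries, so the mimics themselves are not seen in these data.

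The main transcript of each of the 8 target genes that the study followed was searched for the word on GRCh37. A site whose surrounding bases spanned no splice junction was found in the 3′UTR of 7 of them. The remaining gene, CDK4, has the word in its longest annotated 3′UTR. The sites of the 5 genes discussed in detail below are shown with the word in capitals. The CCND1 site lies at chr11:69468069-69468091, the CCNE1 sites at chr19:30314917-30314939 and chr19:30315155-30315177, the CCND3 site at chr6:41903056-41903078 on the minus strand, the CDC25A sites at chr3:48199753-48199775 and chr3:48200062-48200084 on the minus strand, and the CDK6 sites at chr7:92238063-92238085 and chr7:92238973-92238995 on the minus strand.
CCND1: tctttcacattgttTGCTGCTat
CCNE1, first: gtgcgtgctcccgaTGCTGCTat
CCNE1, second: aactgttttgtaagTGCTGCTat
CCND3: gtgattgacagcttTGCTGCTga
CDC25A, nearer the end of the 3′UTR: tgtggtactggggcTGCTGCTat
CDC25A, nearer the stop codon: aagttacacagaaaTGCTGCTgg
CDK6, nearer the end of the 3′UTR: aggtcagagtgcccTGCTGCTgt
CDK6, nearer the stop codon: acacataccctctcTGCTGCTtt
None of these windows pairs with bases 13 to 16 of either mimic at the usual distance, the stretch where the mimics differ.

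The Ago2-IP libraries held an estimated 13.6M mapped reads (M, 1e+06 reads) with miR-195, 10.7M with miR-497 and 16.8M in NT cells, and the total RNA libraries 24.7M to 31.0M. Only part of the Ago2-IP reads lay in listed genes, 32.3% with miR-195, 21.2% with miR-497 and 24.6% in NT cells, against 85.6% to 88.2% of total RNA reads. Of 10 genes that mark hepatocytes, 9 were above 0 in both mimic libraries, while TTR was at 0.237 RPKM with miR-195 and at 0 with miR-497. Of 7 markers of other cell types, PTPRC and HBB of blood, COL1A2 and DCN of fibroblasts and VWF of endothelium were at 0 in both, while COL1A1 of fibroblasts had 0.149 RPKM with miR-195 against 0.0475 with miR-497. PECAM1 of endothelium had 0.0330 RPKM against 0.0422.

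The median gene had a 1.59-fold higher RPKM with miR-195 than with miR-497 (log2 difference 0.67, quartiles 0.18 to 1.23), and the sum of RPKM was 1.72 times higher. Among the 1175 genes with at least 10 RPKM in both, the median difference was 0.62 on the log2 scale. Against NT cells the median gene was 0.48 higher with miR-195 and 0.23 lower with miR-497. RPKM gives a share of a library and not an amount, so a general gain of precipitated messenger RNA with miR-195 and a larger share of reads outside listed genes with miR-497 cannot be told apart. Every difference below is therefore given relative to the median gene unless it is called deposited, with the median set to 0. On that scale the quartiles were -0.49 and 0.56, and a gene below the median gene by less than 0.67 was still higher with miR-195 as deposited.

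**Figure D1:**
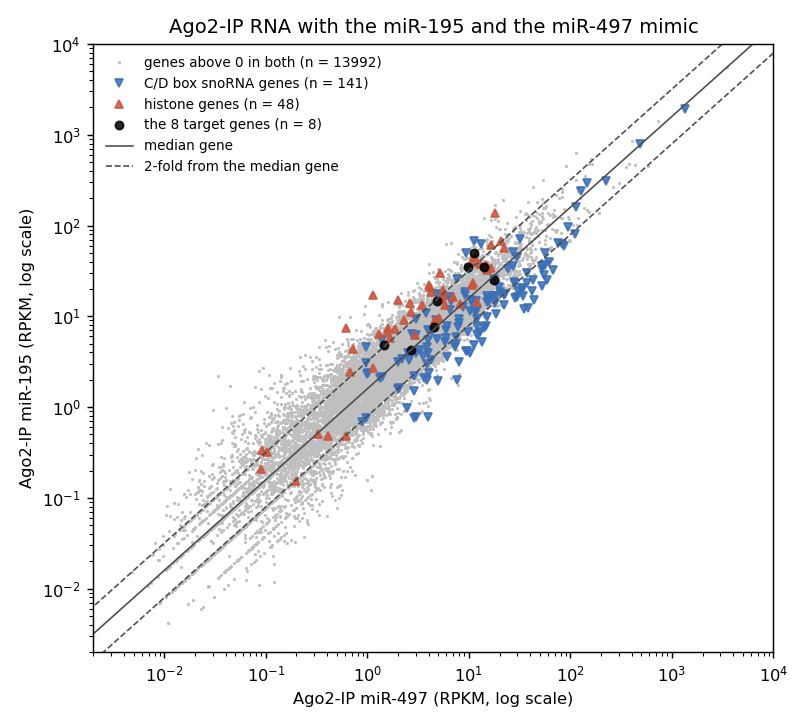
Ago2-IP RPKM of the 13992 genes above 0 in both libraries, with miR-497 on the horizontal and miR-195 on the vertical log axis; the solid line marks the median gene, 1.59-fold above equality, and the dashed lines 2-fold from it. The 48 histone genes lie mostly above the solid line, the 141 C/D box snoRNA genes mostly below it, and the 8 target genes on or above it except CDK6.

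Past 2-fold from the median gene, 1694 genes were higher with miR-195 (12.1% of 13992) and 1433 were higher with miR-497 (10.2%). Among the 10650 genes with at least 1 RPKM, 1280 were higher with miR-195 (12%) and 543 with miR-497 (5.10%). The corresponding shares in total RNA were 3.30% and 3.32% of 15042 genes. The split depends on the centre: of the genes past 2-fold, 54.2% lay on the miR-195 side with the median gene as centre, 94.5% with no centring, 69.5% when centred on genes with at least 10 RPKM, and 45.0% when scaled by the sum of RPKM. It also depends on depth, because a gene with the same number of reads in both libraries lies at -1.03. Of 1425 genes with 2 to 9 estimated reads over both libraries, 45.0% were past 2-fold towards miR-497, against 3.01% of the 1561 genes with at least 1000 reads, where 5.96% were past 2-fold towards miR-195. For that reason single genes are named only where each library had at least 10 estimated reads, unless a count or a 0 is given. Counting intervals of 95% are printed with the fold, and they cover the sampling of reads only, not the variation between cultures or precipitations.

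Among the 12 genes furthest towards miR-195 were a surface receptor and secreted factors. TNFRSF12A, the receptor for the cytokine TWEAK, had 62.3 RPKM with miR-195, 5.91 with miR-497 and 16.2 in NT cells, 6.62-fold above the median gene (interval 5.14 to 8.65). IGF2, a fetal growth factor often made by liver tumor cells, had 64.7, 6.59 and 7.78 RPKM in the same order, 6.15-fold (5.55 to 6.84). Reads of IGF2 are uncertain in part, since the read-through gene INS-IGF2 overlaps it, as GJA9-MYCBP does MYCBP. For IGF2 the NT value lay close to that with miR-497, and for TNFRSF12A it lay between the mimics. IL11, a cytokine of the interleukin 6 family, had 4.96, 0.558 and 1.14 RPKM, 5.58-fold (3.23 to 10.4).

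MRPL20, POLR2L, MYCBP and MAP1S were also among these 12. MRPL20, a protein of the large mitochondrial ribosome subunit, had 192 RPKM with miR-195, 21.8 with miR-497 and 14.2 in NT cells, 5.53-fold (4.63 to 6.64). POLR2L, a small subunit shared by the nuclear RNA polymerases, had 37.4, 4.07 and 4.07 RPKM, 5.76-fold (4.13 to 8.25). MYCBP, which binds the MYC protein, had 10.5, 0.918 and 2.64 RPKM, 7.17-fold (4.98 to 10.7). MAP1S, a microtubule binding protein, had 3.23, 0.287 and 0.490 RPKM, 7.07-fold (3.73 to 15.1), with only 10 estimated reads in the miR-497 library.

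The 12 genes furthest towards miR-497 included 5 small nucleolar RNAs and messages with few reads. SNORD45B, a C/D box small nucleolar RNA, had 12.4 RPKM with miR-195, 38.3 with miR-497 and 31.8 in NT cells, a log2 difference of -2.30 (-3.40 to -1.28). TAS2R46, a bitter taste receptor gene, had 1.18, 4.14 and 2.94 RPKM, -2.48 (-3.44 to -1.59), and close copies of it in the receptor cluster make its reads uncertain. HNRNPH2, an RNA binding protein, had 1.12, 3.19 and 0.151 RPKM, -2.18 (-2.71 to -1.68). For HNRNPH2 the NT library was far below both mimics, whereas its total RNA was 18.8, 22.9 and 16.2 RPKM with miR-195, with miR-497 and in NT cells. HNRNPH2 adjoins RPL36A on chromosome X and the counting between neighbours is not given in the sources used here. OMD, a matrix protein, had 0.693, 1.66 and 2.06 RPKM, -1.93 (-2.71 to -1.19), from 24 and 45 estimated reads.

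Some genes were seen with 1 mimic only. Above 0 with miR-195 and at 0 with miR-497 were 1320 genes, of which 61 reached 1 RPKM, and the reverse held for 473 genes, of which 24 reached 1 RPKM. C4orf48 had 6.53 RPKM with miR-195, an estimated 48 reads, and 0 with miR-497, which makes it at least 12.5-fold higher on the deposited scale against a floor of 3 reads in the miR-497 library. Its NT value was 0.220 RPKM. At the edge of the level required for single genes, 225 genes had 1 to 1.1 RPKM in the higher library and 188 had 0.9 to 1.

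Base composition went with the difference. Over 12689 protein-coding genes divided into 10 groups of equal size by the G+C content of the annotated main transcript, the median difference was higher at every step, from -0.44 in the lowest group (30.7% to 38.3% G+C) to 0.92 in the highest (62.0% to 74.6%). Past 2-fold towards miR-195 were 1.18% of the lowest and 44.8% of the highest group, and past 2-fold towards miR-497 were 17.2% and 3.86%. Total RNA ran the other way, from 0.22 in the lowest to -0.40 in the highest group. Against NT cells the deposited miR-195 median went from 0.09 in the lowest group to 1.11 in the highest, and the miR-497 median from -0.15 down to -0.46, so the 2 Ago2-IP libraries departed from NT in opposite directions and the larger part of the trend was on the miR-195 side. Transcript length went with the difference less steeply, from 0.56 to -0.28 between the shortest and the longest of 10 groups. Across genes within this pair of libraries the Spearman correlation with G+C was 0.56 (n = 12689) for Ago2-IP and -0.59 (n = 12482) for total RNA, a description of 1 library pair each, in which genes are not independent replicates and share depth and preparation. The part of base composition in any single gene's difference was not tested, and the medians of protein-coding gene groups below are also given centred within 50 bins of G+C and length, 10 of the first by 5 of the second. This centring was chosen after the trend was seen.

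**Figure D2:**
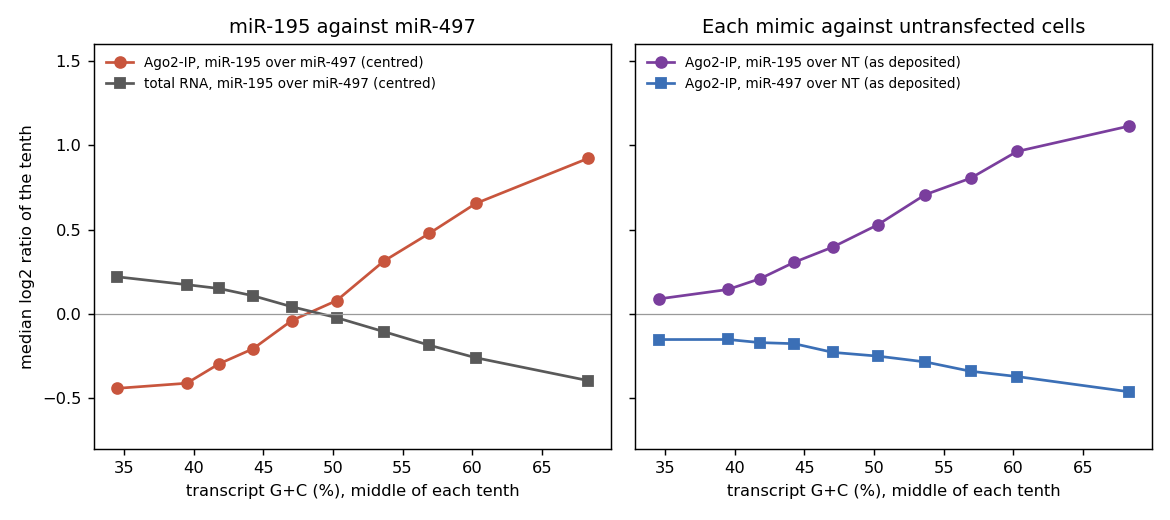
Median log2 ratio (vertical axis) in 10 groups of protein-coding genes by transcript G+C in percent (horizontal axis). On the left the Ago2-IP ratio of miR-195 over miR-497 climbs from -0.44 to 0.92 while the total RNA ratio declines from 0.22 to -0.40; on the right the deposited Ago2-IP ratios of miR-195 and of miR-497 over NT move apart.

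The Argonaute and GW182 messages were examined because the precipitated complex is built from their products. EIF2C2, which encodes Ago2, had 34.2 RPKM with miR-195, 10.2 with miR-497 and 28.1 in NT cells, 2.10-fold above the median gene (1.88 to 2.35), and in total RNA 7.11, 7.42 and 8.89 RPKM. The Ago2-IP library that stood apart for this gene was that with miR-497. The GW182 genes had the same order of libraries. TNRC6A had 38.1, 16.7 and 26.7 RPKM, 1.43-fold (1.35 to 1.52), TNRC6B had 10.7, 3.73 and 9.80 RPKM, 1.79-fold (1.65 to 1.95), and TNRC6C had 8.36, 2.70 and 6.58 RPKM, 1.94-fold (1.71 to 2.21). The other Argonaute genes lay on both sides, with EIF2C1 at 0.17 (-0.01 to 0.35), EIF2C4 at -0.27 (-0.68 to 0.15) and EIF2C3 at -0.64 (-0.96 to -0.31), and DICER1, which cuts microRNA precursors, at -0.22 (-0.34 to -0.10). TARBP2, the partner of Dicer, was the highest of the list with 10.6, 2.27 and 2.87 RPKM, 2.95-fold (2.16 to 4.09). Of the 13 genes compared, 2 were past 2-fold towards miR-195 (15.4%, near the 12.1% of all genes) and 0 towards miR-497, with a median of 0.18 and 0.31 after centring for G+C and length.

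The 8 target genes are those the study followed. CCND1, CDK6 and E2F3 were known targets that served as positive controls. The other 5 were predicted targets that the study selected partly from these libraries, and CDK6 was also among the candidates selected in this way. The values of those 5 and of CDK6 are therefore not independent evidence. CCND1, which encodes cyclin D1, had 49.4 RPKM with miR-195, 11.3 with miR-497 and 11.4 in NT cells, 2.75-fold above the median gene (2.50 to 3.02). CCNE1, which encodes cyclin E1, had 34.5, 9.74 and 8.53 RPKM, 2.23-fold (1.91 to 2.60). As deposited, CCND1 with miR-497 was close to its NT value and CCNE1 was 0.19 above it on the log2 scale, when the median gene was 0.23 below. CCND3, cyclin D3, had 4.82, 1.47 and 2.28 RPKM, 2.05-fold (1.43 to 3.01). CDC25A, the phosphatase that activates CDK2, had 14.9, 4.81 and 8.45 RPKM, 1.94-fold (1.65 to 2.28). For CCND3 and CDC25A the miR-497 value was below NT.

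The other target genes differed less. CDK4, the kinase partner of the D cyclins, had 35.3 RPKM with miR-195, 14.0 with miR-497 and 18.3 in NT cells, 1.58-fold (1.35 to 1.85). CDK6, which has the same role, had 25.2, 17.8 and 23.7 RPKM and lay below the median gene at 0.885-fold (0.840 to 0.932). E2F3, a transcription factor of the G1 to S transition, had 7.67, 4.53 and 5.05 RPKM, and BTRC, the substrate receptor of a ubiquitin ligase, had 4.25, 2.67 and 3.06 RPKM. Their intervals, 0.909 to 1.24 for E2F3 and 0.831 to 1.20 for BTRC, include the median gene. Past 2-fold towards miR-195 were 3 of the 8 (37.5%, against 12.1% of all genes), with a median of 0.81 against 0 for all genes. This share and this median include the genes selected partly from these libraries and are not independent evidence. After centring for G+C and length the median of the 8 was 0.37, CCND1 was at 1.38, CCNE1 at 0.88, CDC25A at 0.96, CCND3 at 0.40 and CDK6 at 0.28.

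In total RNA CCNE1, CCND3, CDC25A and CDK4 lay below the median gene, the other way from Ago2-IP. CDK6 lay below it in both, at -0.18 in Ago2-IP and -0.12 in total RNA, and CCND1 above it in both, at 1.46 and 0.22. E2F3 and BTRC, near the median gene in Ago2-IP, were at -0.04 and -0.36 in total RNA. CCNE1 had 6.76 RPKM with miR-195, 10.2 with miR-497 and 21.0 in NT cells. CCND3 had 3.42, 8.22 and 10.7 RPKM, and CDC25A had 6.31, 10.9 and 18.6. CDK6 had 22.7, 25.9 and 52.3 RPKM. In these genes both mimics lay below NT and miR-195 lay lowest, whereas CCND1 had 47.0, 42.3 and 43.8 RPKM. The median total RNA difference of the 8 genes between the mimics was -0.43.

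**Figure D3:**
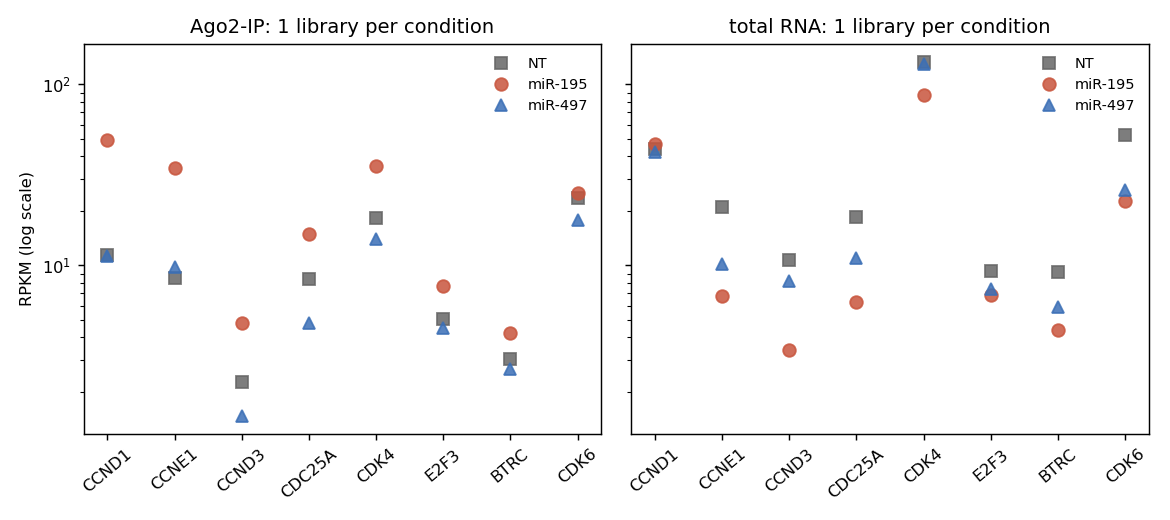
RPKM (log axis) of the 8 target genes in the Ago2-IP libraries on the left and the total RNA libraries on the right, 1 point per library without error bars because each condition has 1 library. In Ago2-IP the miR-195 point is the highest of the 3 for every gene as deposited, with CDK6 at 25.2 against 23.7 in NT cells. On this scale the median gene was itself 0.48 (log2) higher with miR-195 than in NT cells. CDK6 at 0.09 and BTRC at 0.47 lay below that shift, and the other target genes above it. In total RNA the miR-195 point is the lowest for every gene but CCND1.

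The other genes known as targets of the miR-15/16 family were spread around the median gene. Of 28 compared, 3 were past 2-fold towards miR-195 (10.7%, against 12.1% of all genes) and 4 towards miR-497 (14.3%, against 10.2%), with a median of 0.00. Of the 4, MYB with 1 and 1, FGF2 with 7 and 7 and BCL2 with 1 and 3 estimated reads had too few reads for a direction. So had RECK, of the 3 towards miR-195, with 8 and 1 estimated reads (interval 0.527 to 174). HMGA1, a chromatin protein, was the highest of those with at least 10 reads besides being the most abundant, at 45.0, 8.57 and 15.1 RPKM, 3.30-fold (2.86 to 3.82). CDK1, the kinase that drives mitosis, was the lowest, at 4.04, 6.27 and 7.59 RPKM, a log2 difference of -1.31 (-1.68 to -0.94). The word TGCTGCT was found in the 3′UTR for 24 of the 28, and CDK1 was not among them. WEE1, the kinase that holds CDK1 inactive, was at 14.5, 7.79 and 14.8 RPKM, 1.17-fold (1.03 to 1.33).

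The target word was then searched in every annotated 3′UTR of the protein-coding genes compared. It was present in 3564 of 12682 genes (28.1%), and these had a median of 0.036 against 0.038 for the 9118 genes without it, a difference of -0.002 on the log2 scale. Past 2-fold towards miR-195 were 11.5% of genes with the word and 13% of those without, and towards miR-497 6.45% and 9.37%. Genes with the word had longer 3′UTRs, with a median of 2686 bases against 1101. Within 5 groups of genes by 3′UTR length those with the word lay higher each time, by 0.16 on average. They lay at 0.50 against 0.25 in the shortest group and at -0.11 against -0.15 in the longest. In each group the genes with the word also had the higher G+C, so the 0.16 was not taken at equal G+C. After centring for G+C and length the differences were 0.20, 0.09, 0.04, 0.04 and 0.008 from the shortest group to the longest. The longest group held 1397 of the genes with the word.

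After centring for G+C and length the medians were 0.09 with the word and -0.03 without, a difference of 0.12. They were 0.09, 0.11 and 0.11 for genes with 1, 2 and at least 3 copies in the longest 3′UTR. The words for 6 other microRNAs known in liver cells, which neither mimic carries, gave differences of 0.03 to 0.11 on the same scale, with 0.11 for the miR-17 word GCACTTT and 0.09 for the miR-30a word TGTTTAC. In total RNA the difference was -0.07 for the shared word and -0.01 to 0.02 for the other 6. The shared word had the furthest value from 0 of the 7 words in each kind of library, and in Ago2-IP it was close to that of the miR-17 word.

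Pairing beyond the seed is where the mimics differ, so genes were also divided by the bases that match positions 13 to 16. The word TATT, which pairs with miR-195 there, preceded a site in 138 genes, with a median of -0.10 as measured and 0.15 after centring for G+C and length. The word CCAC, which pairs with miR-497, preceded a site in 121 genes, with a median of 0.15 as measured and 0.10 after centring. The other genes with a site in the longest 3′UTR lay at 0.09 after centring for both words. The differences were thus 0.05 and 0.004, and the order of the 2 groups was reversed by the centring.

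**Figure D4:**
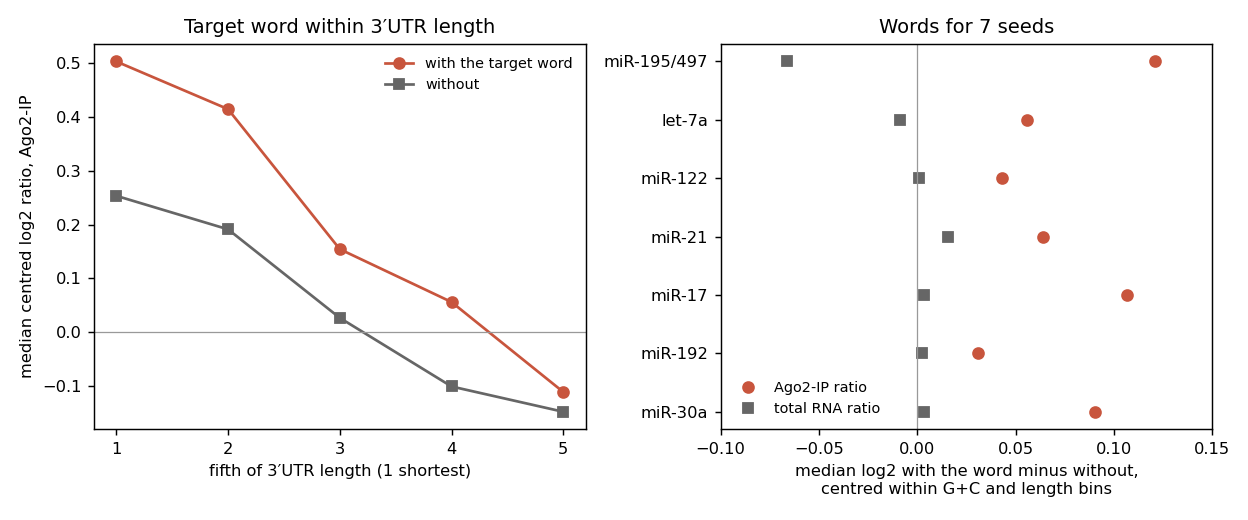
Left, median Ago2-IP difference (log2, relative to the median gene) of genes with and without the target word in 5 groups by 3′UTR length, where the points with the word lie above those without in each group. Right, the difference between genes with and without each of 7 words after centring for G+C and length, 0.12 in Ago2-IP and -0.07 in total RNA for the shared word.

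Some single genes with the word were also far from the median gene. MT2A, a metallothionein that binds zinc and copper, had 167 RPKM with miR-195, 17.9 with miR-497 and 36.6 in NT cells, 5.84-fold (4.65 to 7.43), and in total RNA 152, 213 and 173 RPKM. PHLDA3, an inhibitor of AKT induced by p53, had 14.2, 1.61 and 2.70 RPKM, 5.55-fold (3.71 to 8.64). At the other end CEP152, a centriole protein, had 2.81, 4.68 and 5.80 RPKM, a log2 difference of -1.41 (-1.67 to -1.14), and MARCH1, a membrane ubiquitin ligase, had 1.11, 2.19 and 2.38 RPKM, -1.65 (-2.06 to -1.25). For MT2A and PHLDA3 the NT value lay nearer to miR-497 than to miR-195 as deposited.

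Immediate early, metallothionein and p53 target genes lay towards miR-195, and other stress genes less so. Of 19 immediate early genes, which transcribe within minutes of a stimulus, 8 were past 2-fold towards miR-195 (42.1%, against 12.1% of all genes) and 1 towards miR-497 (5.26%, against 10.2%), with a median of 0.88. IER3, a survival factor, had 114 RPKM with miR-195, 16.7 with miR-497 and 38.5 in NT cells, 4.30-fold (3.74 to 4.97), and in total RNA 116, 117 and 104 RPKM. FOSL1, an AP-1 subunit, had 13.2, 2.03 and 4.56 RPKM, 4.09-fold (2.89 to 5.95). Of 7 metallothionein genes, which share close copies, 5 were past 2-fold towards miR-195 (71.4%, against 12.1%) and 0 towards miR-497, among them MT1E at 117, 18.2 and 33.0 RPKM, 4.05-fold (3.28 to 5.05). Of 19 p53 targets 6 were past 2-fold towards miR-195 (31.6%, against 12.1%) and 0 towards miR-497, with CDKN1A, the inhibitor of G1 kinases, at 27.8, 6.34 and 14.4 RPKM, 2.75-fold (2.34 to 3.24), and MDM2, the ligase that degrades p53, at 31.7, 28.8 and 33.3 RPKM, 0.690-fold (0.654 to 0.729). Centring for G+C and length brought the medians of these lists to 0.59, 0.54 and 0.29. Genes of the unfolded protein response had a median of 0.26, and 0.30 after centring, from DDIT4 at 1.40 (1.04 to 1.79) to HSP90B1, a chaperone of the endoplasmic reticulum, at -1.14 (-1.22 to -1.07), and interferon genes a median of 0.09, and -0.003 after centring.

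Histone messages, which end in a stem-loop and not in a poly-A tail in the replication-dependent class, lay towards miR-195. Of 48 compared, 25 were past 2-fold towards miR-195 (52.1%, against 12.1% of all genes) and 2 towards miR-497, with a median of 1.07, and 0.44 after centring for G+C and length. HIST1H1C, a linker histone, had 139 RPKM with miR-195, 18.2 with miR-497 and 25.7 in NT cells, 4.78-fold (4.02 to 5.72), while its total RNA was 4.61, 8.16 and 5.58 RPKM. H2AFZ, a variant histone whose message carries a poly-A tail, had 14.4, 12 and 18.1 RPKM, 0.755-fold (0.597 to 0.957). Histone genes share near-identical coding sequence, so reads may have been placed on the wrong copy or dropped. The median total RNA difference of the list was -0.72.

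Genes for ribosomes, mitochondria and the proteasome had medians towards miR-195, which centring for G+C and length lowered. Among 80 cytosolic ribosomal protein genes 17 were past 2-fold towards miR-195 (21.2%, against 12.1% of all genes) and 6 towards miR-497 (7.5%, against 10.2%), with a median of 0.49, and 0.31 after centring. RPLP0, of the ribosomal stalk, had 634 RPKM with miR-195, 114 with miR-497 and 42.8 in NT cells, 3.47-fold (3.28 to 3.68). RPS14 had 269, 42.4 and 22.5 RPKM, 3.98-fold (3.57 to 4.46). In both the miR-497 value was also above NT, and the many processed pseudogenes of this family make all of these values uncertain. Of 75 mitochondrial ribosomal protein genes 15 were past 2-fold towards miR-195 (20%, against 12.1%) and 0 towards miR-497, with a median of 0.47, and 0.25 after centring. Of 78 respiratory chain genes 17 were past 2-fold towards miR-195 (21.8%) and 1 towards miR-497 (1.28%), with a median of 0.61, and 0.35 after centring. COX5B, a subunit of cytochrome oxidase, had 122, 13.9 and 14.6 RPKM, 5.51-fold (4.35 to 7.08), and its total RNA was 129, 181 and 138 RPKM. Proteasome genes had a median of 0.44, and 0.19 after centring, with 6 of 37 past 2-fold towards miR-195 (16.2%, against 12.1%) and 0 towards miR-497. Translation factors had a median of 0.17, and 0.15 after centring, and chaperones 0.06, and 0.22 after centring.

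Liver genes were divided by their role. Of 19 hepatocyte transcription factors 8 were past 2-fold towards miR-195 (42.1%, against 12.1% of all genes) and 1 towards miR-497 (5.26%, against 10.2%), with a median of 0.68, and 0.42 after centring for G+C and length. CEBPB had 5.00 RPKM with miR-195, 0.715 with miR-497 and 2.30 in NT cells, 4.38-fold (2.52 to 8.25), and HNF4A, the nuclear receptor that maintains hepatocyte identity, had 22.3, 7.42 and 11.3 RPKM, 1.88-fold (1.68 to 2.12). Messages of secreted plasma proteins were spread, with a median of 0.09 over 31 genes, and -0.32 after centring. SERPINA1, the protease inhibitor α1-antitrypsin, had 134, 35.5 and 32.1 RPKM, 2.38-fold (2.23 to 2.53), whereas AFP, the fetal albumin-like protein, had 446, 354 and 331 RPKM, 0.790-fold (0.770 to 0.811). Apolipoprotein and lipoprotein assembly genes had a median of 0.35, and 0.01 after centring. Among those with at least 10 reads in each library the highest was APOE at 59.7, 11.1 and 16.6 RPKM, 3.39-fold (2.84 to 4.08). The lowest was MTTP at 0.898, 1.33 and 1.19 RPKM, 0.423-fold (0.284 to 0.629). APOB, of the same lipoprotein particles as APOE, was at 294, 299 and 309 RPKM, 0.618-fold (0.610 to 0.625). The APOE transcript has 69.0% G+C and that of APOB 43.5%, but LCAT, with 60.8% G+C, was at 0.845-fold (0.627 to 1.15).

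Metabolic and transport genes differed between lists. Of 18 glycolysis genes 4 were past 2-fold towards miR-195 (22.2%, against 12.1% of all genes) and 0 towards miR-497, with a median of 0.70, and 0.35 after centring for G+C and length, and with ALDOA, the aldolase of muscle and tumor cells, at 49.4, 11.2 and 15.4 RPKM, 2.77-fold (2.47 to 3.13). Cholesterol and fatty acid synthesis had 1 of 27 past 2-fold towards miR-195 (3.70%) and a median of 0.28, and 0.04 after centring. Solute carriers had 38 of 252 past 2-fold towards miR-195 (15.1%, against 12.1% of all genes) and 24 towards miR-497 (9.52%, against 10.2%), shares near those of all genes, with a median of 0.19, and 0.03 after centring.

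Mitosis genes lay towards miR-497. Of 61 mitosis genes 12 were past 2-fold towards miR-497 (19.7%, against 10.2% of all genes) and 1 towards miR-195, with a median of -0.49, and -0.40 after centring for G+C and length. CENPE, a kinetochore motor, had 4.31 RPKM with miR-195, 7.63 with miR-497 and 8.91 in NT cells, a log2 difference of -1.50 (-1.67 to -1.33), and in total RNA 8.85, 9.72 and 16.5 RPKM. Of 48 DNA replication genes 3 were past 2-fold towards miR-497 (6.25%, against 10.2%) and 2 towards miR-195 (4.17%, against 12.1%), with a median of -0.35, and -0.40 after centring, and with POLE2, a subunit of DNA polymerase epsilon, at 2.11, 4.05 and 4.98 RPKM, -1.61 (-2.13 to -1.11). As deposited, both mimics were below NT for CENPE and POLE2. The mitosis list was 0.56 lower than NT with miR-195 and 0.66 lower with miR-497 at its median, as deposited, when the median gene was 0.48 higher and 0.23 lower. Of 43 cyclin and CDK genes 6 were past 2-fold towards miR-195 (14.0%, against 12.1%) and 2 towards miR-497 (4.65%, against 10.2%), with a median of -0.07, and 0.28 after centring. Checkpoint kinase and CDC25 genes had a median of -0.19, and -0.09 after centring.

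ZNF genes, mostly zinc finger repressors, lay towards miR-497 as well, with 69 of 447 past 2-fold towards miR-497 (15.4%, against 10.2% of all genes) and 34 towards miR-195 (7.61%, against 12.1%) and a median of -0.50, and -0.28 after centring. Centring for G+C and length gave the median the opposite sign in 4 lists, which became 0.05 for the other miR-15/16 targets, 0.28 for cyclin and CDK genes, -0.32 for plasma proteins and -0.003 for interferon genes. As deposited, the lists with medians below the median gene were higher with miR-195, at 0.18 for mitosis genes, 0.32 for DNA replication genes, 0.17 for ZNF genes and 0.16 for long noncoding RNAs, and only the C/D box RNAs, described next, were lower at -0.13.

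**Figure D5:**
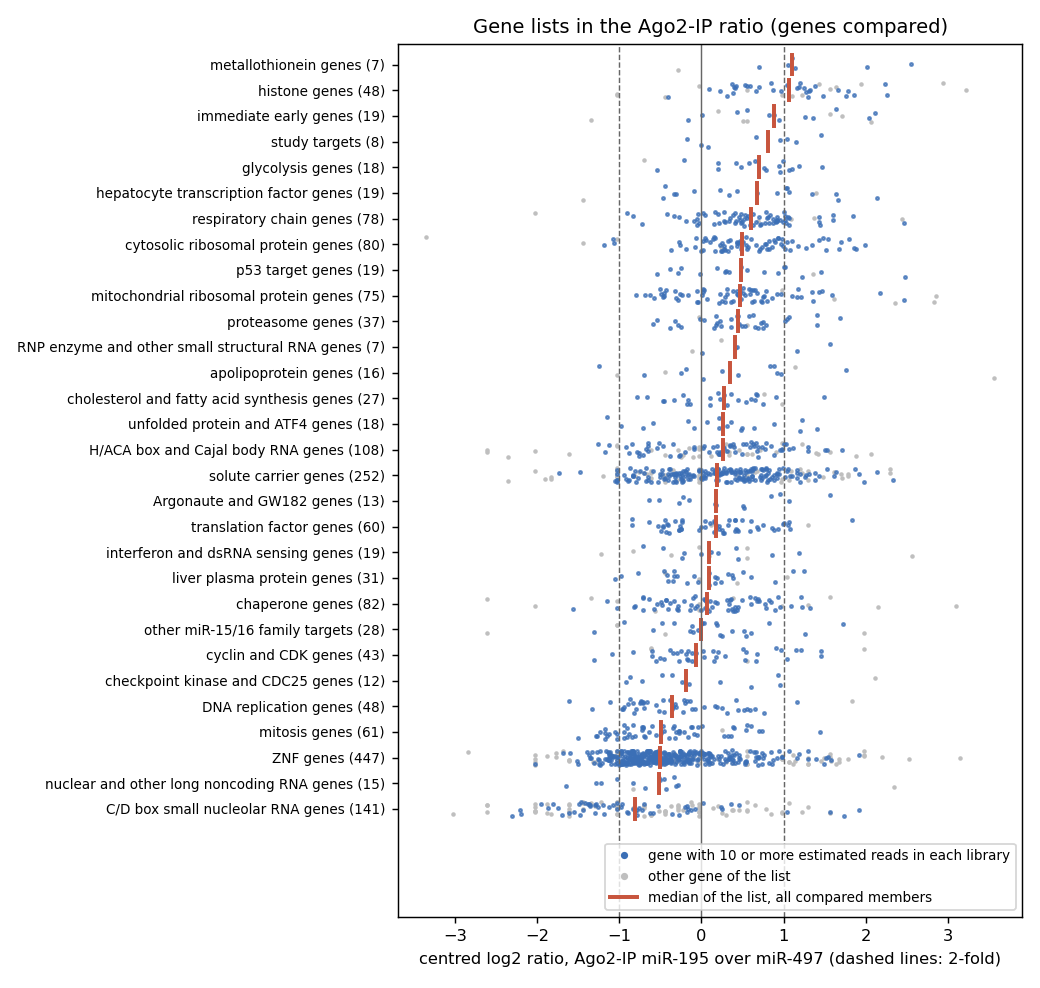
Ago2-IP difference between miR-195 and miR-497 (log2, relative to the median gene) for the members of 30 gene lists, 1 point per gene, blue with at least 10 estimated reads in each library and grey otherwise, with a red bar at the list median. Medians run from 1.10 for metallothionein genes and 1.07 for histone genes down to -0.50 for ZNF genes, -0.52 for long noncoding RNA genes and -0.80 for C/D box snoRNA genes.

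C/D box snoRNAs, which guide methylation of ribosomal RNA, had 64 of 141 past 2-fold towards miR-497 (45.4%, against 10.2% of all genes) and 8 towards miR-195 (5.67%, against 12.1%), with a median of -0.80, and -0.97 for the 60 with at least 10 reads in each library. H/ACA box RNAs, which guide pseudouridylation, had 10 of 108 past 2-fold towards miR-497 (9.26%) and 15 towards miR-195 (13.9%), near the 10.2% and 12.1% of all genes, with a median of 0.26. Base composition went with the difference in each class. In 3 groups of about equal size by G+C, from the lowest to the highest, the medians were -1.36, -0.80 and -0.16 for C/D box and -0.19, 0.33 and 0.70 for H/ACA box RNAs.

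The most abundant member of each class lay near the median gene. SNORD17 had 1936 RPKM with miR-195, 1358 with miR-497 and 787 in NT cells, a log2 difference of -0.16 (-0.22 to -0.10), and SNORA63 had 1411, 736 and 112 RPKM, 0.27 (0.16 to 0.37). Both were higher than NT with either mimic as deposited. The C/D box RNAs compared have a median length of 77 bases, and how well RNAs of this size were kept during library preparation was not tested. RMRP, the RNA of the RNase MRP enzyme and the most abundant gene in both libraries, had 5600, 3511 and 4826 RPKM, 0.00 (-0.03 to 0.04). RPPH1, the RNA of RNase P, had 863, 401 and 171 RPKM, 0.43 (0.35 to 0.52), and RNU11, of the minor spliceosome, had 180, 38.2 and 7.04 RPKM, 1.56 (1.15 to 2.00).

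Of 15 long noncoding RNAs 1 lay above the median gene and the median was -0.52. That 1 was H19, at a log2 difference of 2.34 (1.14 to 3.84) from 62 and 6 estimated reads. MALAT1, a nuclear RNA, had 456 RPKM with miR-195, 585 with miR-497 and 527 in NT cells, a log2 difference of -1.03 (-1.05 to -1.02), while its total RNA was 35.7, 24.2 and 26.0 RPKM. NEAT1, the scaffold of nuclear paraspeckles, had 156, 135 and 124 RPKM, -0.46 (-0.48 to -0.44). The snoRNA host genes GAS5 and SNHG1 were at -1.22 (-1.42 to -1.02) and -1.29 (-1.44 to -1.14), and MIR17HG, the host of the miR-17 cluster, at -1.65 (-2.00 to -1.30) with 1.89, 3.72 and 4.73 RPKM. For GAS5, SNHG1 and MIR17HG the NT value was above both mimics.

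The Ago2-IP difference ran against the total RNA difference over all genes. Of 1670 genes past 2-fold towards miR-195 that were also compared in total RNA, 79.5% lay below the median gene there, with a median of -0.29, and of 1227 genes past 2-fold towards miR-497, 38.5% did. The Spearman correlation of the 2 differences across 13615 genes was -0.35, and across 12482 protein-coding genes it was -0.37 before and -0.03 after centring both for G+C and length. The first group had a median G+C of 59.8% and the second of 43.0%. This describes 4 libraries, and genes are not independent replicates.

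The NT library lay on the miR-497 side. Relative to each library's median gene, the NT level was nearer to that with miR-497 than to that with miR-195 for 750 of 999 genes past 2-fold towards miR-195 with at least 10 reads in each library (75.1%), for 447 of 561 past 2-fold towards miR-497 (79.7%) and for 5962 of 9243 within 2-fold (64.5%). For EIF2C2 and all 3 GW182 genes the NT level was nearer to that with miR-195.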

How the data were processed

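Ago2-IP RNA and total RNA of Hep G2 cells were sequenced as single reads of 36 bases on a Genome Analyzer IIx. The authors aligned them to hg19 by ELANDv2, took RPKM from CASAVA 1.7, and deposited those RPKM, 1 for each gene of each library. The annotation and read filters are not given in the sources used here.

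The 21891 lines were averaged to 21863 symbols, since 28 symbols are listed more than once. The log2 ratio of Ago2-IP RPKM, miR-195 over miR-497, was taken for genes above 0 in both without a pseudocount, and its median was subtracted. Total RNA was treated alike. No test was made, because each condition has 1 library.

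Read numbers were estimated from the smallest whole numbers whose ratios give a gene's RPKM in the libraries. This succeeded for 13848 of 15486 genes tried, and for 79.8% of 13189 genes the implied length was within 1.5-fold of the annotated transcript. Solutions were used for 13177 symbols, those with an implied length within a set limit. For 7946 other symbols reads were computed from the annotated transcript length, and symbols with neither were given none. Intervals of 95% are exact binomial on these reads and cover counting error only. The procedure was tested on simulated data.

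Transcripts and 3′UTRs came from GENCODE release 44 on GRCh37, with 18208 symbols matched directly, 2276 through an older symbol and 1379 unmatched. Members, gene lists and tests were chosen with earlier results of these data known. Named genes are the 8 study genes, the 12 highest and 12 lowest ratios, the 5 highest and 5 lowest with the target word, the 3 highest at 0 in the other library, the highest, lowest and most abundant member of each list, EIF2C2, MIR497HG and the 10 most abundant of each library, and not all are named in the text. Genes of short lists named outside this rule, such as MYB, FGF2, BCL2, MT1E, FOSL1, the GW182 and Argonaute genes other than EIF2C2 and EIF2C3, HNF4A, NEAT1, GAS5 and SNHG1, were chosen after their values were seen. Alternatives were other centring, pseudocounts, minimum RPKM, division by the total RNA ratio, other words and lines of a symbol kept apart. The minimum of 10 reads, the G+C and length bins and the other microRNAs' words were added after the data had been seen. The work used pysam 0.24.0, scipy 1.17.1, numpy 2.4.6, matplotlib 3.10.9 and pandas 2.3.3 under Python 3.11.15.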

Additional observations from a re-analysis of the deposited data

How the results depend on the processing

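Each condition has 1 library, so no setting leaves out a replicate. No paired analysis was possible because the result comes from no test. In place of 1694 genes past 2-fold towards miR-195 and 1433 towards miR-497 there were 4939 and 290 with no centring, 1048 and 124 with a pseudocount of 1, 1080 and 687 with at least 1 RPKM in 1 library (centred anew on those genes), 725 and 405 with at least 1 RPKM in both, 976 and 578 with at least 10 reads in each, 642 and 857 when centred within bins of G+C and length, and 309 and 67 when the whole counting interval lay past 2-fold. Centred on genes with at least 10 RPKM, 857 were past 2-fold towards miR-497. The cause was not tested beyond what each setting does by construction. The difference of the target word was 0.0506 after dividing by total RNA and 0.12 within bins of G+C and length. It was 0.0797 for the word of 6 bases, -0.0488 for that of 8 and 0.16 within 5 groups of 3′UTR length. The 0.16 was not taken at equal G+C. The correlation of the Ago2-IP and total RNA differences was -0.0341 within bins of G+C and length. Of 121 named genes past 2-fold, 120 kept their direction with a pseudocount of 1, and all those compared kept it under the other 9 alternatives. Past 2-fold remained 57 of 103 of them within bins of G+C and length. No centring, scaling by the sum of RPKM and centring on genes with at least 10 RPKM move every gene by less than 2-fold. Under these settings a gene chosen as past 2-fold could not change direction, so its kept direction is no check. The same holds where genes were only left out and the rest centred anew. The centre moved by 0.08 with at least 1 RPKM in 1 library and by 0.01 with at least 10 reads in each. At least 1 RPKM in both is a setting of the same kind. Scaling by the sum of RPKM lowers every difference by 0.11, which gives chaperone, plasma protein and interferon genes a median below 0.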
